A study of Mus musculus with 2 samples.

Results

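The Dppa genes (developmental pluripotency associated) were examined in lines made in mouse embryonic stem cells. They form a set of 5 genes, Dppa1, Dppa2, Dppa3, Dppa4 and Dppa5a. The members were taken by name: every probe set of the array whose annotation gives a single symbol, that of a member. This found 5 probe sets, 1 per gene, of 33793 on the array, and 5 genes of 22180 that were named by probe sets with 1 symbol. The set was selected on the RMA values of these 2 samples, chosen by the opposite directions of its members, so all of their values are given as a description and none is tested.

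Transcripts were measured on an Affymetrix array in 2 samples, 1 per group. The EWS-OCT4A-GFP sample, called the fusion line below, comes from a stable line that carries a fusion of the EWS protein to OCT4A, the pluripotency isoform of the transcription factor OCT4, with GFP. The GFP sample, called the control, comes from a stable line that carries GFP. Both lines were made in Niwa embryonic stem cells, were grown with LIF in medium for stem cells, and were given doxycycline at 1 µg/ml, which lowers endogenous OCT-4 in these cells. Whether a stable line is 1 clone, how long doxycycline was given, and what promoter drives the transgene are not stated in the labels. No sample without doxycycline was analysed here. Differences that the lines had before doxycycline therefore cannot be told apart from those that came with it. The comparison asks which genes differ between the fusion line and the control, with doxycycline given to both.

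The Dppa genes share a history rather than a sequence: they were grouped because their transcripts, like that of OCT4, mark pluripotent cells and the germ line. DPPA2 and DPPA4 are partner proteins with a SAP DNA-binding domain that sit together on chromatin, keep developmental promoters poised and help to switch on genes of the 2-cell stage. DPPA3, also called Stella or PGC7, is a maternal and germ cell protein that limits DNA methylation by taking UHRF1 off chromatin, and it protects the maternal genome from TET3 in the zygote. DPPA5A carries a KH-type RNA-binding domain and belongs to a family with OOEP and KHDC3 of the oocyte. The role of the Dppa1 product is less well known.

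All values are log2 RMA values, and each difference is the fusion-line value minus the control value. A gene was counted as higher or lower when the difference was at least 1 (2-fold) and the higher value of the pair reached 4.10, called the floor here, which is the median over both arrays. The distance of a low value from background is unknown. Each group has 1 sample, so no difference has a replicate check, no p-value is given, and every size below is that of 2 samples. The arrays had medians of 4.11 and 4.08, and Pou5f1, which encodes OCT4, read 5.37 in the fusion line and 5.24 in the control. Whether that probe set sees the fusion transcript is not stated in the labels, so it does not check the labels. Cell identity was read from lists of pluripotency factors, trophectoderm markers and fibroblast markers. The mean level of pluripotency factors was 8.67 in the fusion line and 5.98 in the control. That of trophectoderm markers was 4.61 and 7.58. The control was thus below the fusion line for pluripotency factors and above it for trophectoderm markers. Within the control, the mean of the pluripotency factors was below that of the trophectoderm markers. These lists therefore do not bear out an embryonic stem cell identity for the control. Markers of fibroblasts, the usual feeder cells, had mean levels of 4.73 and 5.21.

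Of the 5 Dppa genes, 4 had a higher value in the fusion line and 1, Dppa1, a lower one. Of all 5 members, 4 reached the floor in at least 1 sample, and Dppa5a did not. By size, 3 were at least 2-fold higher (Dppa4, Dppa3 and Dppa2) and 1 at least 2-fold lower (Dppa1). Over all 22180 genes, 5.68% were higher and 7.25% lower by the same size rule. The positive differences ran from 0.91 to 1.90, and the negative one was -5.07.

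**Figure D1:**
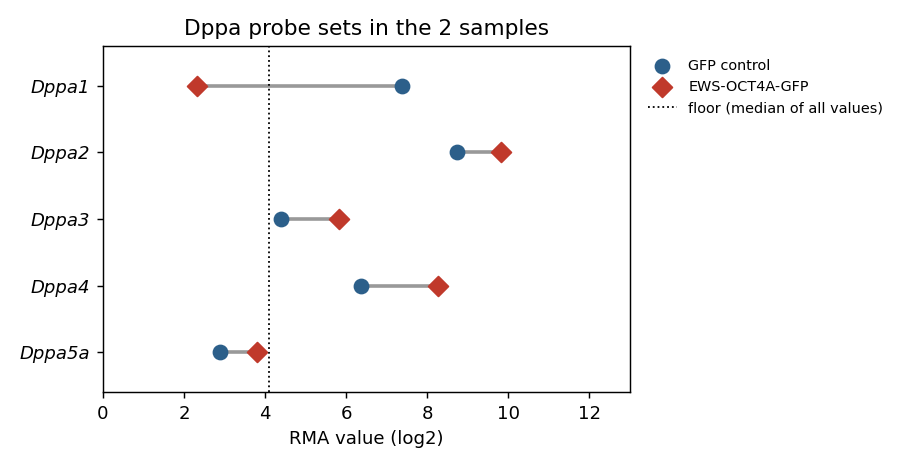
RMA value (log2, horizontal axis) of each Dppa probe set in the control (circle) and the EWS-OCT4A-GFP line (diamond), 1 sample each with no error bar, with the floor of 4.10 as a dotted line. Dppa1 lies far to the right in the control (7.39 against 2.31), the other members lie to the right in the fusion line, and both Dppa5a points are below the floor.

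Dppa1 (probe set 17262127) read 2.31 in the fusion line and 7.39 in the control. The control was well above the floor, and the value of the fusion line was below it. The log2 difference of -5.07 amounts to 33.7-fold. With the low value raised to the floor the difference was -3.29, or 9.80-fold, and the true size of a difference with a value below the floor is uncertain. Dppa1 ranked 19 from the bottom among the 13516 genes at or above the floor. Among the 3494 genes whose mean level lay within 0.5 of its own, 3 genes, Dppa1 included, had a difference as low. Among trophectoderm markers 10 of 14 were also at least 2-fold lower, and their part in the value of Dppa1 was not tested. Fewer cells of a type and less RNA per cell cannot be told apart in these bulk samples.

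The promoter of Dppa1, the member with the lower value, is shown because of the 5 members it alone was found in the RefSeq promoter table of build GRCm38.p6. Dppa2, Dppa3, Dppa4 and Dppa5a were not matched. The window of 300 bases, from 250 before the start of transcription to 50 after it, lies at chr11:46629225-46629524 on the minus strand. Capitals mark the only match to the 6 motifs searched.

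Dppa1 promoter: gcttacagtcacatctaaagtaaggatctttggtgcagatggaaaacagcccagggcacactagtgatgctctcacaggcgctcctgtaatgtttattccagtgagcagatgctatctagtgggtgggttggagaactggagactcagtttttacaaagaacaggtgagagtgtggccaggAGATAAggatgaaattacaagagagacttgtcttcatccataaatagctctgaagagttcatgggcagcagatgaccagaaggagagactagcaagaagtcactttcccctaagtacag

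The window held 1 CpG, and 14.1% of the 32851 promoter windows of that length held as few, against a median of 7. Its GC share was 45.7%, with a median of 52.7% over all windows. The match in capitals was AGATAA, a form of the GATA factor motif, on the plus orientation of the gene, starting 69 bases before the start of transcription. This motif was found in 11.2% of all windows on either strand. No match was found on either strand to the POU octamer ATGCAAAT (in 1.74% of all windows), the SOX motif ACAATG (12.6%), the TEAD motif GGAATG (14.7%), the KLF motif GGGTGTGG (3.56%) or the TATA box TATAAA (13.6%). Overlaps between motifs did not arise, as 1 match was found. Only 1 exact string of letters was searched per motif, so other forms of these motifs were not covered. The motif letters were chosen after the sequence had been seen, and a match describes letters, not a site.

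Dppa4 (probe set 17326011) read 8.28 in the fusion line and 6.38 in the control, a log2 difference of 1.90 or 3.73-fold. It was the highest positive difference of the set. It ranked 271 from the top among genes at or above the floor. Of the 2177 genes of like mean level, 1.88% had a difference as high. Its partner gene Dppa2 (probe set 17326021) read 9.82 and 8.73, a difference of 1.09 or 2.12-fold. Both partners were well above the floor in both samples and higher in the fusion line, with Dppa4 further apart than Dppa2 by 0.81. Dppa2 lay just past the 2-fold size, and with loess centring, which takes out a trend of the difference with level, its difference was 0.96 and no longer 2-fold. Of the 445 genes of like level, 5.17% had a difference as high as that of Dppa2.

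Dppa3 (probe set 17462686) read 5.83 in the fusion line and 4.41 in the control, a difference of 1.42 or 2.68-fold. Both values were above the floor, the control value by little. Of the 3248 genes of like level, 5.05% had a difference as high. The RefSeq gene table lists a pseudogene, Dppa3-ps, and the probes may be shared with it.

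Dppa5a (probe set 17529029) read 3.81 in the fusion line and 2.89 in the control. Both values were below the floor, so no fold is given, and the difference of 0.91 is a difference between low readings. Of the 4318 genes of like level, 2.57% had a difference as high. The RefSeq table lists Dppa5b and Dppa5c, pseudogene copies of Dppa5a, so what the probe set measures is uncertain as to the copy. Dppa5a is known as an abundant transcript of embryonic stem cells, and its reading was low in both samples.

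**Figure D2:**
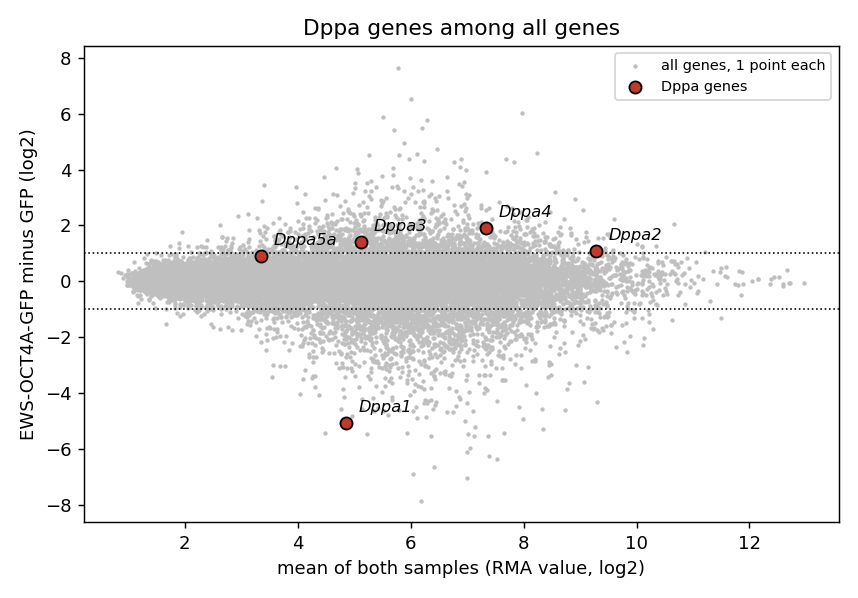
Difference between the samples (EWS-OCT4A-GFP minus GFP, log2, vertical axis) against the mean of both samples (log2, horizontal axis) for all 22180 genes (grey) and the Dppa genes (red); dotted lines mark 2-fold. Dppa1 sits at -5.07 near the lower edge of the cloud, and Dppa2, Dppa3, Dppa4 and Dppa5a sit between 0.91 and 1.90 inside its upper part.

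The genes next to each member were read from the RefSeq gene order. The 3 genes on each side with a probe set of their own were taken. Here and below, beside, next to and between refer to such genes, and genes without such a probe set were skipped. All 6 neighbours of Dppa1 had a lower value in the fusion line, and 4 of the 6 were at least 2-fold lower, against 7.25% of all genes. BC053393, beside Dppa1, read 2.55 in the fusion line and 7.37 in the control, a difference of -4.81. That size is close to the -5.07 of Dppa1. Gm12169 differed by -3.02, Havcr1, which encodes the TIM-1 receptor for phosphatidylserine, by -2.46 (2.62 against 5.08) and the pseudogene Gm4926 by -2.10. Timd2, another TIM family receptor, differed by -1.75 and Gm12171 by -0.66, both with values below the floor. With 8 genes taken on each side, a width chosen after the values were seen, the same count of 4 genes was lower among 16, and those 4 lay within the nearest 3 on each side. Dppa1 thus lies in a short run of genes with lower readings in the fusion line. Probes shared between neighbouring copies were not examined.

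**Figure D3:**
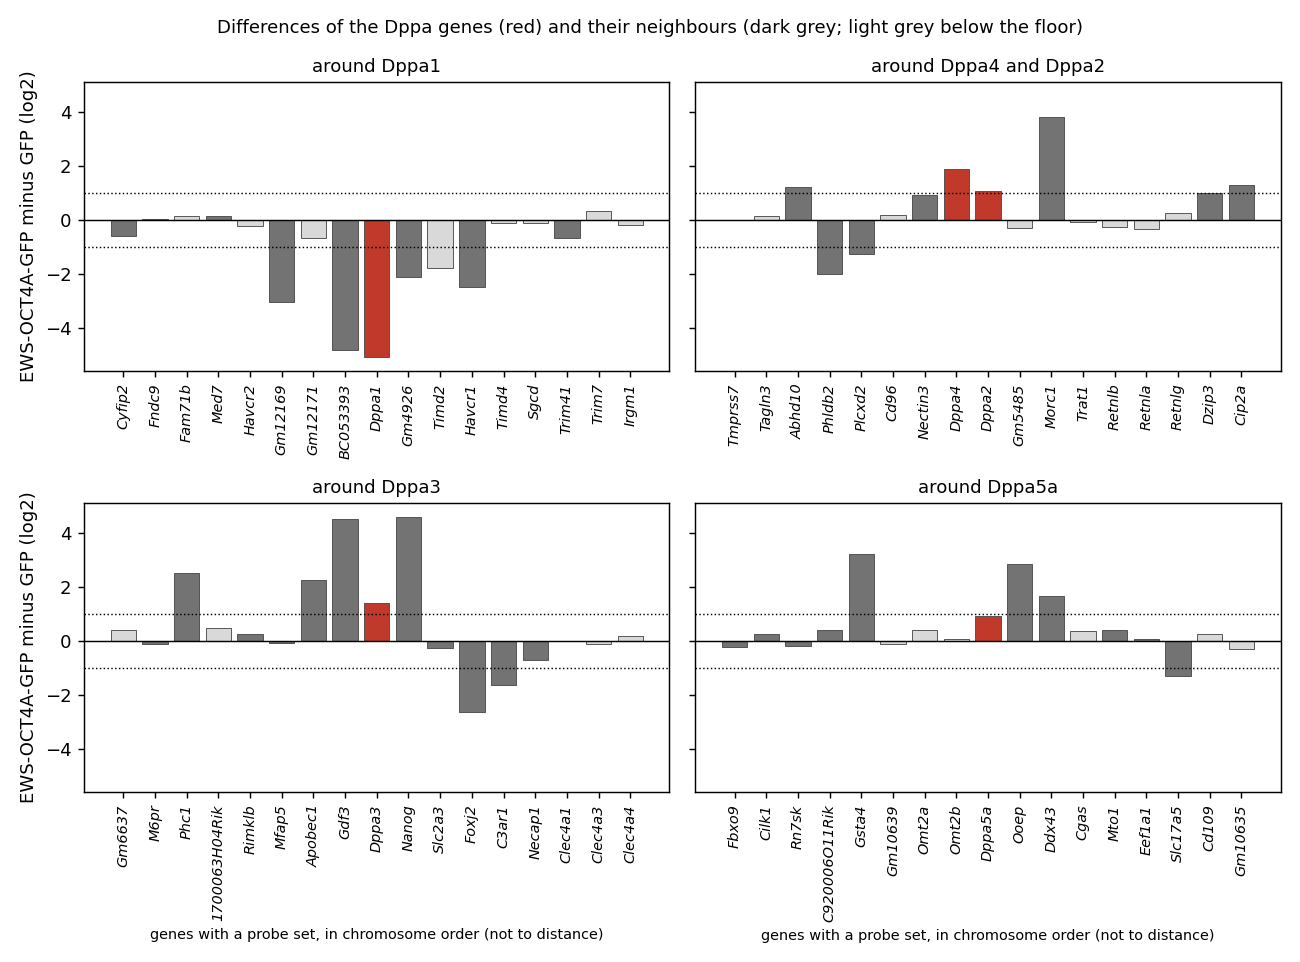
Difference (EWS-OCT4A-GFP minus GFP, log2, vertical axis) of the Dppa genes (red) and the 8 genes with a probe set on each side in chromosome order (dark grey; light grey where both values are below the floor), drawn in gene order and not to distance, with dotted lines at 2-fold. The run around Dppa1 points down (BC053393 at -4.81), and the genes beside Dppa3 (Gdf3 at 4.53, Nanog at 4.61) and beside Dppa2 (Morc1 at 3.81) point up.

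Dppa4 and Dppa2 lie side by side among genes with a probe set of their own. Morc1, an ATPase of germ cells that silences transposons, follows with an uncharacterised noncoding transcript, Gm5485, between it and Dppa2. Morc1 read 7.59 in the fusion line and 3.78 in the control, a difference of 3.81, above those of Dppa2 and Dppa4. Gm5485 differed by -0.29, with values below the floor. On the other side Nectin3, an adhesion molecule, differed by 0.93, Cd96 by 0.18 below the floor, and Plcxd2 by -1.25. Trat1, on the far side of Morc1, differed by -0.09 below the floor. Apart from the members Dppa4 and Dppa2, Morc1 was the only one of these genes at least 2-fold higher. Plcxd2 was the only one at least 2-fold lower. Over all genes, 5.68% were higher and 7.25% lower.

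Among genes with a probe set of their own, Dppa3 lies between Gdf3 and Nanog. Gdf3, a ligand of the TGF-beta family, read 8.06 in the fusion line and 3.54 in the control, a difference of 4.53. Nanog, a core pluripotency factor, read 10.5 and 5.94, a difference of 4.61. Apobec1, an RNA-editing cytidine deaminase, lay next to Gdf3 and differed by 2.26. The difference of Dppa3, 1.42, was smaller than those of the 3. Mfap5, on the side of Gdf3, differed by -0.06. On the side of Nanog, the glucose transporter gene Slc2a3 differed by -0.25, within 2-fold, and Foxj2 by -2.60. Of the 6 neighbours of Dppa3, 3 were at least 2-fold higher and 1 lower, against 5.68% and 7.25% of all genes.

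Dppa5a lies beside Ooep, a gene of the same KH family that encodes a part of the subcortical maternal complex of the oocyte. Ooep read 7.64 in the fusion line and 4.80 in the control, a difference of 2.84, and unlike Dppa5a it was above the floor in both samples. Ddx43, an RNA helicase gene of germ cells, read 4.84 and 3.16, a difference of 1.69. Of the remaining neighbours, Omt2a (0.40), Omt2b (0.08), Gm10639 (-0.10) and Cgas (0.39) had both values below the floor.

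Lists of genes tied to each member by role were read beside it. Pramel genes and markers of pluripotency, trophectoderm and fibroblasts, not tied to a member by role, were listed as well. All lists together held 127 genes measured apart from the members. In the fusion line, 37 of the 127 were 2-fold or more higher and 18 were 2-fold or more lower. Pluripotency factors made up 17 of the 37, and trophectoderm markers made up 10 of the 18. The lists were drawn up with earlier results of these data known, and the counts are read against 5.68% higher and 7.25% lower over all genes. The median difference of all genes was 0.

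For DPPA2 and DPPA4, the genes of the 2-cell stage that lie downstream of them had a median difference of 0.25, with 4 of 20 at least 2-fold higher and 1 lower. Zscan4e (6.40 against 4.58), Zscan4d (5.06 against 3.32), Zscan4c (6.46 against 5.08) and Zscan4b (5.34 against 4.13) were higher. Zscan4 genes resemble each other closely, and which copy was read is uncertain. Zscan4a (4.94 against 4.72) differed by 0.22 and did not reach 2-fold. At a floor of 6, at the 75th percentile as floor, or at a 3-fold size, 2 genes of this list were higher. Tdpoz2 was lower, with a difference of -3.18. The transcription factor gene Duxf3, which DPPA2 and DPPA4 activate, read 1.72 and 1.76, both far below the floor, and 12 of the 20 genes were below it. Nkx2-5 and Syce1, developmental and meiotic genes known to need DPPA2 or DPPA4, differed by 0.07 and 0.86 and were not 2-fold apart. Of the 17 genes with a SAP domain, Dppa2 and Dppa4 included, 3 were at least 2-fold higher and 1 lower. Dppa2 and Dppa4 were selected on these values, so their part in that count is no result about the list. Apart from them, Sarnp (1.06), an mRNA export factor, was the only higher gene. Pias1 (-1.59), a SUMO ligase, was the only lower one. Over all genes, 5.68% were higher and 7.25% lower. Loess centring left 1 of the 3 higher genes.

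For DPPA3, regulators of DNA methylation had a median difference of 0.85, with 5 of 11 at least 2-fold higher and 1 lower. Tet1, a dioxygenase that oxidises 5-methylcytosine, read 9.95 in the fusion line and 5.70 in the control, a difference of 4.25. Zfp57, a protector of imprints, differed by 3.91, its partner Trim28 by 1.57 and Dnmt3l, a cofactor of the de novo methyltransferases, by 1.49. Uhrf1, whose product DPPA3 takes off chromatin, differed by 1.15. The maintenance methyltransferase gene Dnmt1, which works with UHRF1, differed by -0.95 and did not reach 2-fold. It lay just short of that size, and with loess centring 2 genes of this list were lower. Tet3, the dioxygenase gene whose action DPPA3 limits in the zygote, read 5.13 and 6.96, a difference of -1.82. Dppa3 and Tet3 thus stood on opposite sides, and Dppa3 and Uhrf1 on the same side.

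For DPPA3 as a germ cell gene, primordial germ cell genes had a median difference of 0.97, with 8 of 17 at least 2-fold higher and 1 lower. Kit, the receptor of stem cell factor, differed by 3.98, Ifitm3, also called Fragilis, by 3.42 and Tdrd12, a piRNA pathway gene, by 3.14. Prdm14, a regulator of the germ line and of naive pluripotency, read 6.55 in the fusion line and 3.89 in the control, a difference of 2.66. Tfap2c, which serves germ cells and trophoblast alike, was the 1 lower gene, with a difference of -1.93. Prdm1, the germ cell specifier, differed by 0.15 and did not reach 2-fold. At a floor of 6, 5 genes of this list were higher.

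For DPPA5A, the KH and maternal complex genes had a median difference of 0.11. Ooep was the 1 of 11 at least 2-fold higher, and none was lower. Khdc3 (4.48 against 3.83) differed by 0.64, and 7 of the 11 were below the floor.

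The markers of cell identity framed both directions. Of 21 pluripotency factors, 17 were at least 2-fold higher and none was lower, with a median difference of 2.12. Nr0b1 (7.65), Tdgf1 (6.04), Nanog (4.61) and Gdf3 (4.53) differed most. Dppa2, Dppa3, Dppa4 and Dppa5a had differences below that median. Of 14 trophectoderm markers, 10 were at least 2-fold lower and none was higher, with a median difference of -3.09. Krt18 (-6.37), Gata2 (-5.44), Krt8 (-5.29) and Cldn4 (-4.50) differed most. Dppa1 lay lower than that median. Of 11 fibroblast markers, 3 were lower (Postn at -4.04, Acta2 at -1.63 and Pdgfra at -1.15) and Fn1 (1.33) was higher. The part of any of these cell states in the values of the Dppa genes was not tested.

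**Figure D4:**
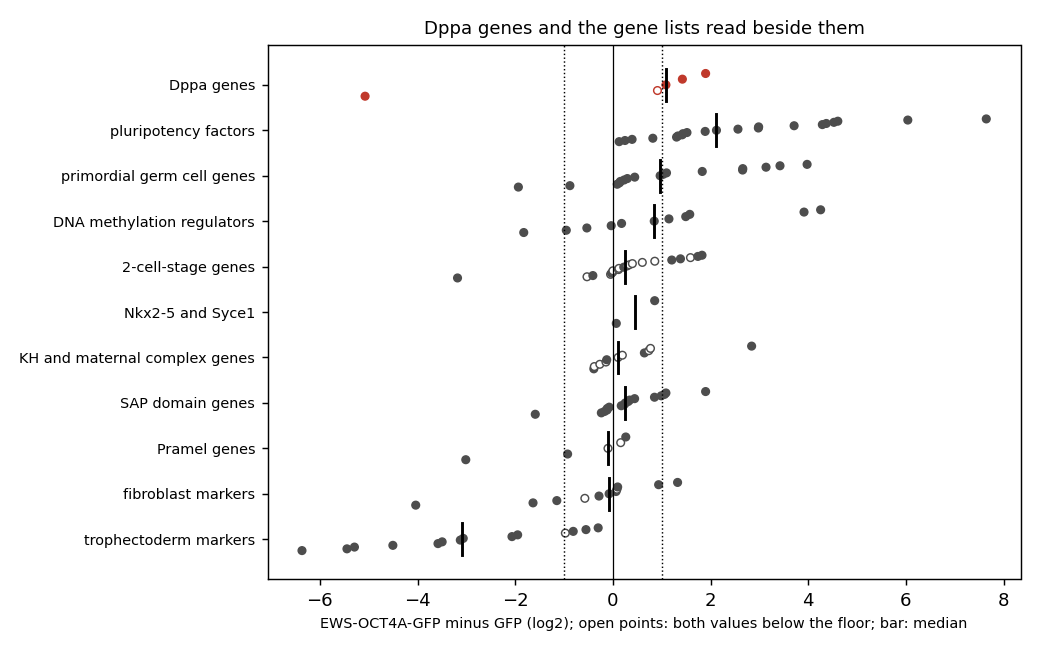
Difference (EWS-OCT4A-GFP minus GFP, log2, horizontal axis) of each gene of the Dppa set (red) and of the lists read beside it (1 point per gene, open where both values are below the floor, black bar at the list's median, dotted lines at 2-fold). Dppa1 at -5.07 lies among the values of the trophectoderm markers (median -3.09), and the other Dppa genes lie between 0 and the median of the pluripotency factors (2.12).

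The genes whose pair of values was nearest to each member were found by Euclidean distance over the 2 samples among 17365 named genes. Probe sets differ in brightness, so nearness over 2 samples describes readings and no more. Nearest to Dppa1 were Slc34a2 (2.48 and 7.05 in the fusion line and the control), Pparg (2.87 and 7.42) and Arhgef6 (1.78 and 7.19), at distances of 0.38 to 0.57. Nearest to Dppa4 were Psrc1 (distance 0.04), Wdr76 (0.18) and Deptor (0.20). Nearest to Dppa2 were Pias2 (0.07), H2ac10 and Snu13 (both 0.11), and nearest to Dppa3 were Oas2, N4bp3 (both 0.07) and Antxr1 (0.08). Dppa5a was nearest to C7 (0.01), Cacna2d1 (0.03) and Stard6 (0.04), readings that also lay below the floor. The 3 genes nearest to Dppa1 were all further from it than those of any other member were from theirs.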

How the data were processed

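The authors deposited log2 values, 1 column per sample, made by RMA in Affymetrix Expression Console 1.1, per the submitters' processing notes. The table states no log base; log2 was taken from RMA and from the range of 0.618 to 13.0. RMA forces both arrays onto a common distribution. The design text says that experiments were duplicated, and it stays unknown whether a column is 1 array or a mean of duplicates. Of 33793 probe sets, 23521 had 1 gene symbol, 1814 several and 8458 none in the platform annotation. All 5 members matched the RefSeq table (GRCm38.p6) by gene ID. For 1082 genes with several probe sets the highest mean stood for the gene.

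The members, gene lists, size rule and alternatives were chosen with earlier results of these data known. Named were all members, Pou5f1, up to 4 genes per list and direction past the size rule, the neighbours and the nearest genes (leaving out predicted models, olfactory and vomeronasal receptors and small RNAs). Duxf3, Zscan4a, Nkx2-5, Syce1, Uhrf1, Dnmt1, Prdm1, Khdc3, Pramel1 and Pramel7 were added after their values were seen. The number of arrays limits the precision. The procedure was tested on simulated data, with differences well past the size rule planted only in probe sets far above the floor. That test does not cover low readings or differences close to 2-fold. Python 3.11.15, numpy 2.4.6, pandas 2.3.3, statsmodels 0.14.6 and matplotlib 3.10.9 were used.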

Additional observations from a re-analysis of the deposited data

How the results depend on the processing

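No paired analysis was possible because there is 1 sample per group, and no replicate could be left out. The differences of the Dppa genes kept their direction under median centring, quantile normalization and loess centring. These steps moved the median of all genes by only -0.032, -0.0075 and -0.028. They could hardly have reversed a difference of 0.91, the smallest of the set. Loess centring brought Dppa2 to 0.96, under the 2-fold size, and left 2 of the 3 higher members. Raising values to the floor gave -3.29 for Dppa1 and 0 for Dppa5a, by construction. At 3-fold, 1 member (Dppa4) was higher, and 23 of the listed genes. At a floor of 6, 2 members were higher, since Dppa3 reads below it. Dppa1 was the 1 lower member under every alternative run. Of 180 counts for single lists under alternatives, 19 moved by more than 1.5 times, or to or from 0. The 180 include counts that were 0 in the main run and stayed 0, which were taken as unmoved. Signal over background is unknown, which limits what can be said of Dppa5a and of the low value of Dppa1.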

Other observations

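The Pramel genes, leucine-rich repeat genes of the early embryo and germ line, were also measured. Of 5 with a probe set of their own, 1 was lower by 2-fold or more and 0 were higher, with a median difference of -0.10. Pramel5 read 2.28 in the fusion line and 5.29 in the control, a difference of -3.01, and like Dppa1 it was above the floor in the control sample and not in the other. Pramel7 differed by -0.93 and Pramel1 by 0.26. These genes belong to a large family of similar copies, so the member is uncertain.

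With 8 genes taken on each side, 5 of 16 neighbours of Dppa2 were at least 2-fold higher and 2 lower. For Dppa4 the counts were 4 and 2, for Dppa3 4 and 2, and for Dppa5a 3 and 1. The windows of Dppa2 and Dppa4 share most of their genes, and each of these members is counted as a higher neighbour of the other. Over all genes, 5.68% were higher and 7.25% lower. Beyond the nearest 3 on each side, near Dppa4 and Dppa2, Cip2a differed by 1.31, Abhd10 by 1.21, Dzip3 by 1.00 and Phldb2 by -1.97. Near Dppa3, the polycomb gene Phc1 differed by 2.51 and C3ar1 by -1.62. Near Dppa5a, the glutathione transferase gene Gsta4 differed by 3.21 and Slc17a5 by -1.28. This width was chosen after the values were seen.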
